A study of Homo sapiens with 12 samples.

Results

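The B cell receptor and its proximal signalling machinery were followed here through 10 genes: CD79A, CD79B, LYN, BLK, SYK, BTK, BLNK, VAV1, PIK3CD and PLCG2. Every probe annotated to these symbols was used, which gave 14 of 48105 probes and 10 of 13702 genes tested. All 14 probes passed the filter on detection, and each was detected on all 12 arrays except the probe of BLNK, which was detected on 7. CD79A and CD79B had 3 probes each and the other genes 1. Probes of a gene share a transcript and are not replicates of each other.

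The material was Raji, an established B cell line from a Burkitt lymphoma, profiled on Illumina BeadChip arrays. Cells of every group carried a short hairpin RNA (shRNA) delivered by transduction, had 48 h of puromycin selection and were harvested 3 days after transduction. The knockdown groups were shMBD2_A and shMBD2_C with 2 arrays each, shCREM with 2 arrays (hairpins A and B) and shMS4A1 with 3 arrays (hairpins A, B and C). A non-targeting hairpin, shNTC, which the control cells carried, had 3 arrays. MBD2 binds methylated CpG and belongs to a NuRD repressor complex, CREM is a cAMP-responsive transcription factor, and MS4A1 makes CD20. By the way the labels are written, the arrays form set 2 (shMBD2 and shNTC replicates 1 and 2) and set 1 (shCREM, shMS4A1 and shNTC replicate 3), 6 arrays each. Each knockdown was compared with shNTC of its own set, so that shCREM and shMS4A1 share a single control array. No label says whether replicates were separate cultures, so p-values measure only the spread between these arrays and their number limits what can be resolved.

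The targeted genes were read before the receptor genes. MBD2 fell under shMBD2 by 1.77 ± 0.24 on the log2 scale (limma adjusted p = 0.00105). MS4A1 had a log2 difference of -1.17 under its own hairpins (limma adjusted p = 0.29), and CREM one of -0.74 under its own (limma adjusted p = 0.528), beside -0.51 under shMS4A1; none of these passed. MS4A1 was 2.04 log2 higher in shCREM than in shMS4A1 cells (limma adjusted p = 0.000364), and CREM differed by -0.23 between them (limma adjusted p = 0.642) and did not pass. MS4A1 was 0.99 higher in shMBD2 than in shNTC cells (limma adjusted p = 0.0362). Of 8 B cell markers with a probe, 7 were detected on every array; PAX5 was not. T and NK cell, myeloid, and epithelial and fibroblast markers were each detected on every array for 1 gene of 10, 9 and 9, and CD3E, CD8A, ITGAM, MPO, S100A9, KRT8 and PDGFRB were detected on none. No gene of these 3 lists passed in any of the 4 comparisons.

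As background, the receptor pairs a membrane immunoglobulin, which binds antigen, with a heterodimer of CD79A and CD79B, whose tails carry the tyrosine motif called ITAM. SRC-family kinases, LYN and BLK among them, phosphorylate those tyrosines, and SYK docks on them and is activated. SYK phosphorylates the adaptor BLNK, on which BTK and PLCG2 assemble, and PLCG2 then makes the messengers that release calcium and activate protein kinase C. VAV1 exchanges nucleotide on RAC proteins, and PIK3CD makes the membrane lipid that recruits BTK. In germinal centre lymphomas such as Burkitt lymphoma this machinery is known to sustain survival through PI3K.

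Because MBD2 reads methylated CpG and CD79A was the receptor gene that differed under shMBD2, the RefSeq sequence upstream of CD79A is shown. It covers the 250 bases before the gene's start at chr19:41877029-41877278 (GRCh38.p14, plus strand), with each CpG in capitals.
CD79A upstream: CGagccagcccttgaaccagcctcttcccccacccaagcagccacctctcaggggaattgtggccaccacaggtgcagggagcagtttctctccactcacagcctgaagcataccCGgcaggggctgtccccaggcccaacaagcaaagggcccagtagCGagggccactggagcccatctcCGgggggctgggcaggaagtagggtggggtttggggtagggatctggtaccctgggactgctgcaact
The window holds 4 CpG, against a median of 11 over 35116 windows of the same length, and 34.34% of all windows hold 4 or fewer. On both strands it holds 1 match to GGAAGT, a core bound by ETS factors and PU.1, which 19.5% of windows contain. It holds 1 match to the E-box CANNTG, which 61.82% of windows contain. The EBF1 core CCCNNGGG and the octamer ATGCAAAT were not in this window; 17.05% and 1.632% of windows contain them. RefSeq windows matched 7 of the 10 genes, 12 windows in all, with between 1 and 33 CpG each. BLNK had 1, PLCG2 4 and VAV1 7. Genes with several windows spanned a wide range: SYK had 2, 13 and 32, BTK 2 and 24, and PIK3CD 3, 14 and 33. No methylation was measured on these arrays.

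CD79A was lower under both MBD2 hairpins, and CD79B was not shown to differ. At its brightest probe, ILMN_1734878, CD79A had normalized log2 intensities of 11.58 and 11.25 on the shMBD2_A arrays and 11.19 and 11.33 on the shMBD2_C arrays, against 12.38 and 12.04 on the shNTC arrays. All 4 knockdown arrays lay below both control arrays. CD79A fell by 0.87 ± 0.13 on the log2 scale (standard error, 1.83-fold, 4 arrays against 2, limma adjusted p = 0.0023). It was the only one of the 10 genes past an adjusted p of 0.05 in that comparison, where 2.86% of all 13702 genes passed and 1.31% passed as lower. In bulk RNA, fewer cells expressing a gene and less RNA per cell cannot be told apart. By hairpin, CD79A fell by 0.80 under shMBD2_A (limma adjusted p = 0.0184) and by 0.95 under shMBD2_C (limma adjusted p = 0.0059). Each hairpin passed for this 1 gene of the 10, against 1.04% and 0.941% of all genes. Both hairpins were set against the same 2 shNTC arrays. The hairpins differed by -0.15, C minus A, with a 95% interval of -0.47 to 0.17. The fall passed in 22 of 23 alternative settings. It did not pass without shNTC replicate 1, where the difference was -0.70 and a single control array was left in set 2. That left-out array had the fewest probes detected, 18652, against 19614 to 20483 on the others. Its median raw intensity was also the lowest, 76.92, beside 77.27 on shMBD2_C replicate 2. Whether this bears on the call was not tested.

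**Figure D1:**
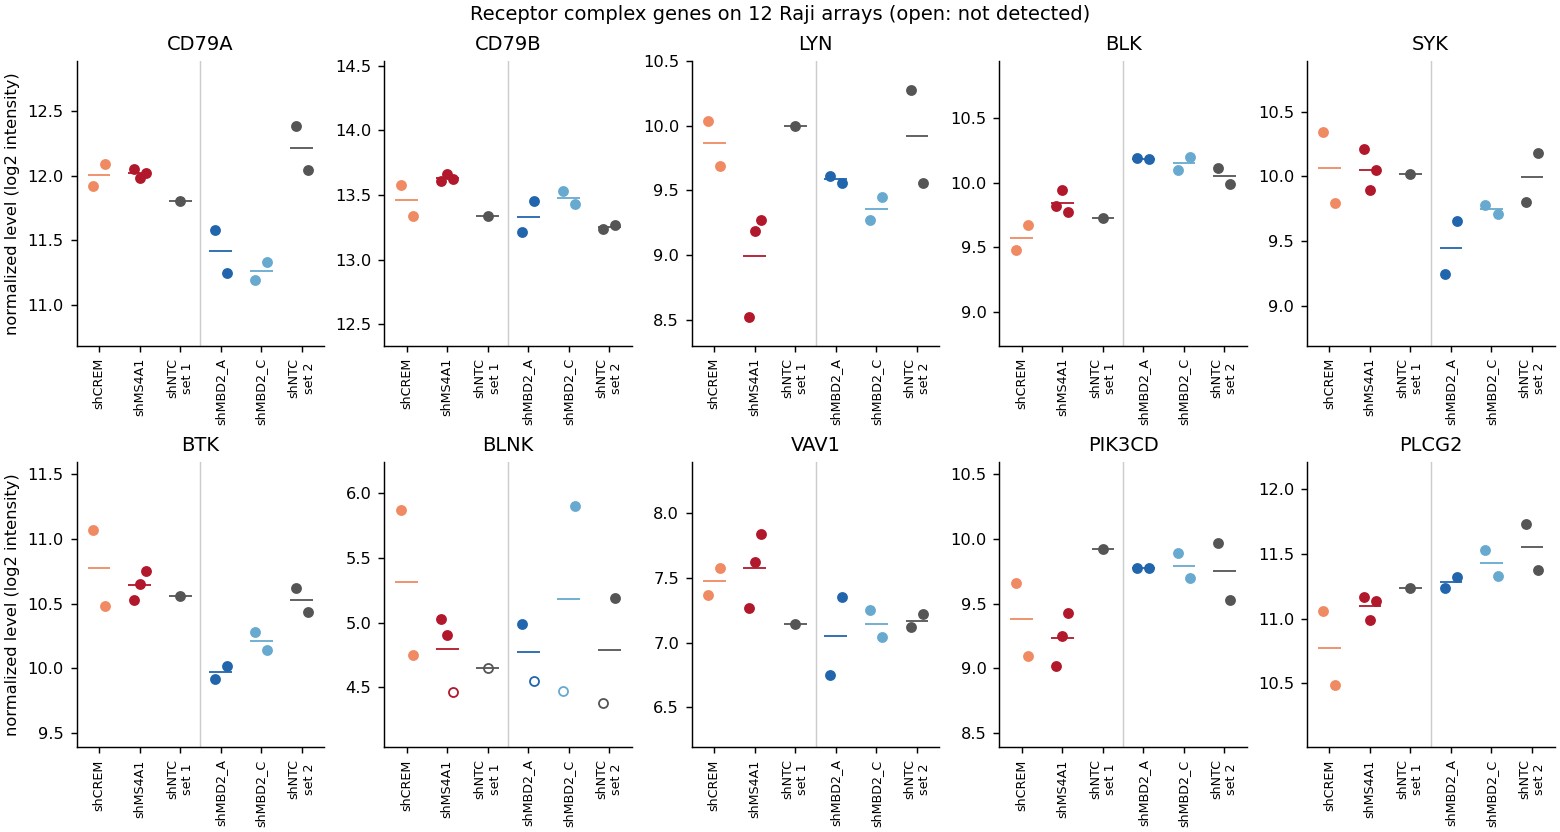
Normalized log2 intensity of the brightest probe of each receptor gene on the 12 arrays; points are arrays, horizontal lines are group means, open points are arrays where the probe was not detected, and the vertical line parts set 1 from set 2. The 4 shMBD2 points of CD79A lie between 11.19 and 11.58, below the shNTC points of their set at 12.38 and 12.04, and the 3 shMS4A1 points of LYN lie at 9.27 or lower.

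The other CD79A probes were dimmer and also lower. At ILMN_1659227 the levels were 10.46, 10.13, 10.09 and 10.06 on the shMBD2 arrays, against 10.99 and 10.51 on the shNTC arrays, a difference of -0.57 (limma adjusted p = 0.0927 over all probes). At ILMN_2410371 the levels were 5.78, 5.53, 6.43 and 5.34 in shMBD2 cells, against 6.66 and 6.64 in shNTC cells, a difference of -0.88 (limma adjusted p = 0.118). This probe was weak, with a detection p-value of 0.0246 on shMBD2_C replicate 2. Its raw intensities overlapped: shMBD2_C replicate 1 read 145.9, against 129.9 and 153.6 on the shNTC arrays. In normalized values the groups did not overlap at any of the 3 probes, which were read on the same arrays. The share of all probes or genes without overlap was not counted. With so few arrays, lack of overlap is a description only, here and for every other gene named. Only ILMN_1734878 passed in the fit over all 27789 probes (limma adjusted p = 0.00149), where 2.09% of probes passed.

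CD79B, the partner chain, had 13.21, 13.45, 13.53 and 13.43 at its brightest probe ILMN_2366212 on the shMBD2 arrays, against 13.24 and 13.27 on the shNTC arrays. These groups overlap, and the difference was 0.15 with a 95% interval of -0.07 to 0.37. At ILMN_1785439 the difference was -0.08 and the groups overlapped. At ILMN_1710017 the shMBD2 arrays read 12.01, 12.10, 12.07 and 11.96 and the shNTC arrays 12.25 and 12.31; the groups did not overlap, and the difference of -0.24 did not pass (limma adjusted p = 0.362). The probes of CD79B thus disagreed in sign, and none passed.

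**Figure D2:**
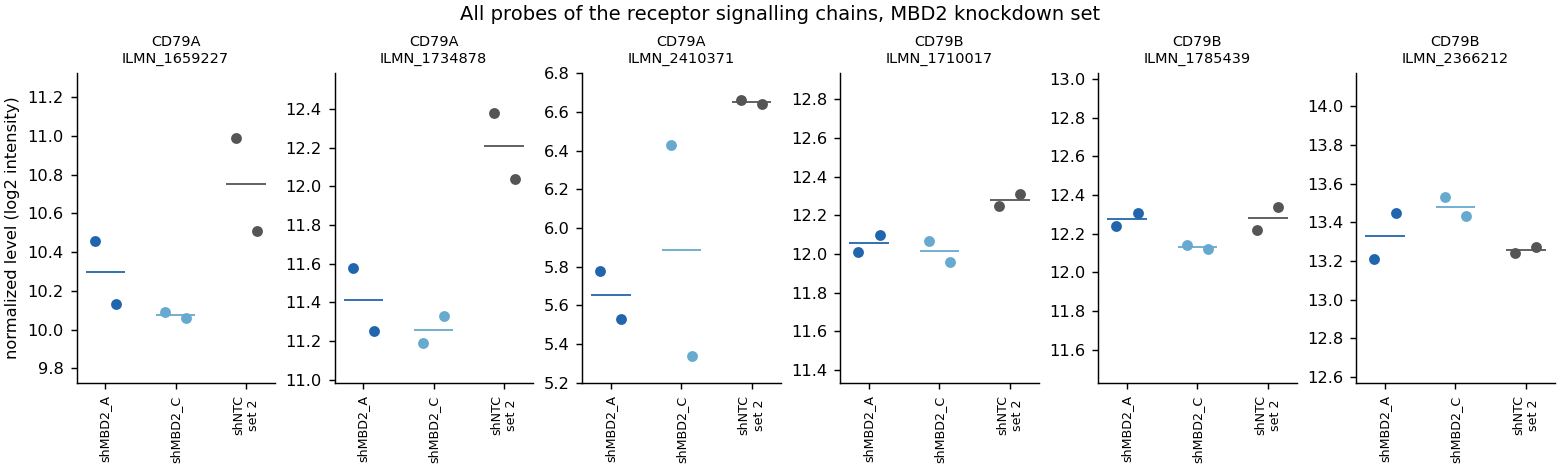
Normalized log2 intensity of each probe of CD79A and CD79B on the arrays of set 2; points are arrays and lines are means. For the 3 CD79A probes the shMBD2 points all lie below the shNTC points, while those of CD79B do so at ILMN_1710017 and overlap with them at the other probes, and each panel spans the same log2 range.

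In set 1 the receptor chains gave no call. CD79A at ILMN_1734878 had 11.92 and 12.09 in shCREM cells and 12.05, 11.98 and 12.02 in shMS4A1 cells, against 11.80 on the shNTC array. Every knockdown array was above that control array. The differences were 0.21 for shCREM (95% interval -0.18 to 0.59) and 0.22 for shMS4A1 (-0.15 to 0.58), both against the same array. Between the knockdowns CD79A differed by -0.01, shCREM minus shMS4A1, with an interval of -0.30 to 0.28. CD79B at ILMN_2366212 had 13.58 and 13.34 in shCREM cells and 13.61, 13.66 and 13.62 in shMS4A1 cells, against 13.34 on the shNTC array. Its difference under shMS4A1 was 0.30 at this probe, 0.42 at ILMN_1785439 and 0.60 at ILMN_1710017, and none passed (limma adjusted p = 0.838, 0.567 and 0.256 over all probes). Under shCREM, against the same array, the differences at these probes were 0.13, 0.39 and 0.44. None of those passed either (limma adjusted p = 0.938, 0.57 and 0.553 over all probes).

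Whether the effect on CD79A differed between knockdowns was tested directly. The effect of shMBD2 minus that of shMS4A1 was -1.09 (95% interval -1.54 to -0.63, limma adjusted p = 0.0491), in a contrast where 0.248% of all genes passed. Minus that of shCREM it was -1.08 (-1.55 to -0.60, limma adjusted p = 0.0405), where 0.598% of genes passed. CD79A was the only one of the 10 genes to pass in either contrast, at its brightest probe. At ILMN_1659227 the values were -0.97 and -0.99 (limma adjusted p = 0.226 and 0.158 over all probes). At ILMN_2410371 they were -0.84 and -0.91 (limma adjusted p = 0.633 and 0.517), so neither of these probes passed. Both contrasts rest on the same set 1 control array and each passed in 7 of 20 alternative settings, with limma adjusted p up to 0.183 and 0.146. In the same contrasts CD79B had -0.85 and -0.69 at ILMN_1710017 (limma adjusted p = 0.117 and 0.169 over all probes). Its values were -0.50 and -0.46 at ILMN_1785439, and -0.15 and 0.02 at ILMN_2366212. No CD79B probe passed.

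LYN, the SRC-family kinase that both starts receptor signalling and phosphorylates inhibitory receptors, was lowest in shMS4A1 cells. Its probe ILMN_1781155 had 10.04 and 9.69 in shCREM cells and 8.52, 9.19 and 9.27 in shMS4A1 cells, against 10.005 on the shNTC array. The shCREM and shMS4A1 arrays did not overlap, and hairpin A of shMS4A1 was the lowest of all 12. LYN was 0.87 ± 0.23 log2 higher in shCREM than in shMS4A1 cells (1.83-fold, 2 arrays against 3, limma adjusted p = 0.0348). It was the only one of the 10 genes past the threshold in that comparison, where 6.12% of all genes passed and 2.87% passed as higher. The call was kept in 11 of 23 alternative settings, with limma adjusted p from 0.0175 to 0.219. Without hairpin A of shMS4A1 the difference was 0.63 (limma adjusted p = 0.126), and without hairpin A of shCREM limma adjusted p was 0.219. The call was also lost without hairpin B of shMS4A1 and without any single shMBD2 array.

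Against the shNTC array, LYN had a difference of -1.01 in shMS4A1 cells (95% interval -1.63 to -0.39, limma adjusted p = 0.354), the largest in size of the 10 genes in that comparison, and -0.14 in shCREM cells (-0.80 to 0.52). None of the 10 genes passed for shMS4A1, where 27 of 13702 genes, or 0.197%, passed; before adjustment 3 of the 10 were under 0.05, beside 6.17% of all genes, with CD79B at the edge of that limit. None passed for shCREM either, where 1 gene, or 0.0073%, passed; before adjustment 1 of the 10 was under 0.05, beside 8.32% of all genes. For shMS4A1 the only setting with a call was the fit with no block for the naming set, in which LYN passed at -0.96 (limma adjusted p = 0.0458). In set 2 LYN had 9.61, 9.56, 9.27 and 9.45 on the shMBD2 arrays, against 10.28 and 9.56 on the shNTC arrays. Its control arrays lay far apart, and the groups overlapped: the control at 9.56 lay below the knockdown array at 9.61. The difference of -0.45 (95% interval -0.91 to 0.02) did not pass.

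BLK, the other SRC-family kinase of the group, stayed within narrow limits. Its levels were 10.19, 10.18, 10.10 and 10.20 in shMBD2 cells, against 10.11 and 9.99 in shNTC cells, and the groups overlapped. The difference was 0.11 with a 95% interval of -0.16 to 0.39. In set 1 BLK had 9.48 and 9.67 in shCREM cells and 9.82, 9.94 and 9.77 in shMS4A1 cells, against 9.73 in shNTC cells. Both shCREM arrays lay below all shMS4A1 arrays, with a difference of -0.27 that did not pass (95% interval -0.56 to 0.02, limma adjusted p = 0.303).

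SYK and BTK, the kinases that act after the SRC family, had values below 0 under shMBD2 that did not pass. BTK read 9.92 and 10.02 on the shMBD2_A arrays and 10.28 and 10.14 on the shMBD2_C arrays, against 10.62 and 10.44 on the shNTC arrays. No shMBD2 array reached the control arrays, and the difference was -0.44 (95% interval -0.77 to -0.11, limma adjusted p = 0.135). When either shCREM array was left out, BTK passed with limma adjusted p of 0.0477 and 0.0467; without shNTC replicate 1 it was 0.564. SYK read 9.24, 9.65, 9.78 and 9.71 in shMBD2 cells, against 9.80 and 10.18 in shNTC cells. All 4 values lay below both controls, the nearest by little, and the difference was -0.39 (95% interval -0.77 to -0.01, limma adjusted p = 0.264). Hairpin A gave -0.54 for SYK and -0.56 for BTK, and hairpin C -0.24 and -0.32; no gene among the 10, nor among all 13702, passed for the difference between hairpins, where 282 genes had an unadjusted limma p under 0.05.

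In set 1 neither kinase gave a call. SYK had 10.34 and 9.79 in shCREM cells and 10.21, 9.89 and 10.05 in shMS4A1 cells, against 10.02 in shNTC cells, and all groups overlapped. Its difference between shCREM and shMS4A1 was 0.01, with a 95% interval of -0.39 to 0.41. BTK had 11.07 and 10.48 in shCREM cells and 10.53, 10.65 and 10.75 in shMS4A1 cells, against 10.56 in shNTC cells. Its differences were 0.22 for shCREM (95% interval -0.24 to 0.68), 0.09 for shMS4A1 (-0.35 to 0.53) and 0.13 between them (-0.22 to 0.47).

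BLNK, the adaptor that links SYK to BTK and PLCG2, was close to the limit of detection. Its probe was detected on 2 of 2 shCREM arrays, 2 of 3 shMS4A1 arrays, 2 of 4 shMBD2 arrays and 1 of 3 shNTC arrays. In set 1 the levels were 5.87 and 4.75 in shCREM cells and 5.03, 4.90 and 4.46 in shMS4A1 cells, against 4.65 in shNTC cells. In set 2 they were 4.99, 4.55, 4.47 and 5.90 in shMBD2 cells, against 4.38 and 5.19 in shNTC cells. The groups overlapped except that both shCREM arrays lay above the single shNTC array, and the 95% intervals were wide: -0.48 to 1.79 for shCREM, -0.93 to 1.21 for shMS4A1 and -0.61 to 0.99 for shMBD2. Any BLNK change within those intervals remained possible on these arrays.

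VAV1, an exchange factor for RAC proteins, had 6.75, 7.35, 7.25 and 7.04 in shMBD2 cells, against 7.12 and 7.22 in shNTC cells. The control values lay inside the knockdown range, and the difference was -0.07 (95% interval -0.56 to 0.41). In set 1 it had 7.37 and 7.58 in shCREM cells and 7.27, 7.62 and 7.84 in shMS4A1 cells, against 7.14 on the shNTC array. All 5 knockdown arrays lay above that array, with differences of 0.34 for shCREM (-0.34 to 1.02) and 0.44 for shMS4A1 (-0.21 to 1.08) that did not pass.

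PLCG2, the phospholipase at the end of the proximal chain, had 11.24, 11.32, 11.53 and 11.33 in shMBD2 cells, against 11.73 and 11.38 in shNTC cells. The groups overlapped, and the difference was -0.20 (95% interval -0.52 to 0.13). In set 1 it had 11.06 and 10.49 in shCREM cells and 11.17, 10.99 and 11.14 in shMS4A1 cells, against 11.24 in shNTC cells. The low shCREM array was hairpin B. The difference for shCREM was -0.47 (95% interval -0.93 to -0.01, limma adjusted p = 0.589), or -0.75 without hairpin A and -0.19 without hairpin B, and that between shCREM and shMS4A1 was -0.32 (-0.67 to 0.02).

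PIK3CD, the delta catalytic subunit of PI3K, had 9.78, 9.78, 9.89 and 9.70 in shMBD2 cells, against 9.97 and 9.53 in shNTC cells. The difference was 0.04 with a 95% interval of -0.35 to 0.42. In set 1 it had 9.66 and 9.10 in shCREM cells and 9.02, 9.25 and 9.43 in shMS4A1 cells, against 9.92 on the shNTC array. All 5 knockdown arrays lay below that array, which both comparisons share. The differences were -0.54 for shCREM (95% interval -1.08 to 0.01, limma adjusted p = 0.599) and -0.68 for shMS4A1 (-1.19 to -0.17, limma adjusted p = 0.582), and shCREM and shMS4A1 differed by 0.15 (-0.26 to 0.55).

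**Figure D3:**
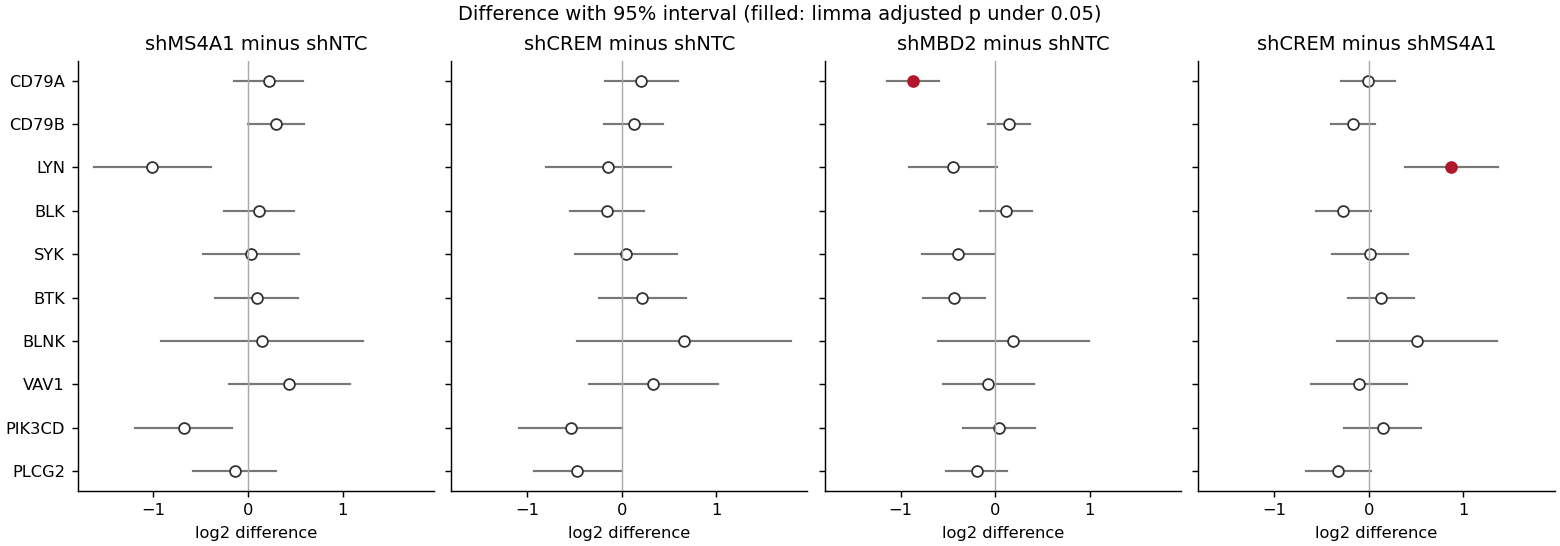
Log2 difference of each receptor gene (brightest probe) in the 4 comparisons; bars are 95% intervals of the limma model and filled points passed an adjusted p of 0.05. CD79A at -0.87 for shMBD2 and LYN at 0.87 for shCREM minus shMS4A1 are the filled points.

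Across the 10 genes the median log2 difference was -0.14 for shMBD2, beside 0.04 over all genes, with 4 genes above 0 and 6 below. It was 0.09 for shCREM and 0.10 for shMS4A1, beside a median within 0.01 of 0 over all genes, with 6 and 7 genes above 0. Between shCREM and shMS4A1 the genes split evenly, 5 above 0 and 5 below, with a range of -0.32 to 0.87.

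**Figure D4:**
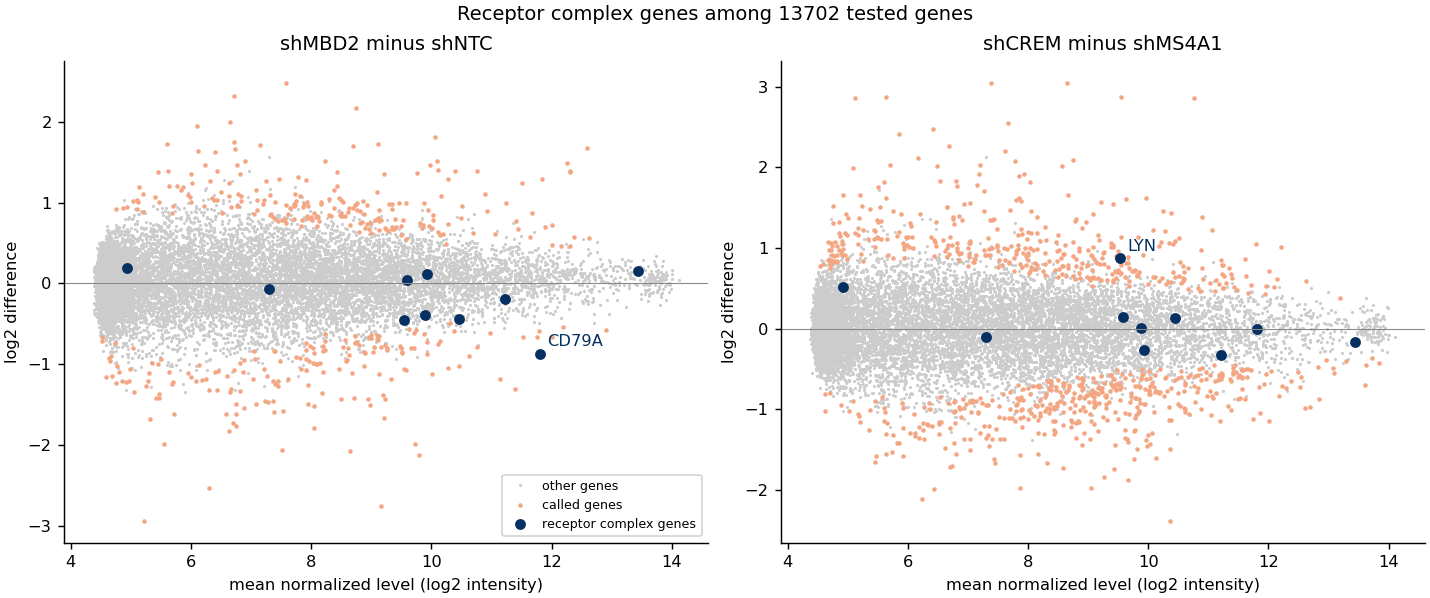
Log2 difference against mean normalized log2 intensity for the 13702 genes, with shMBD2 minus shNTC on the left and shCREM minus shMS4A1 on the right; orange points passed an adjusted p of 0.05 and dark points are the receptor genes. CD79A stands among the 392 genes called on the left, and LYN among the 839 called on the right.

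The rest of the pathway was read from lists of its other parts, of which 103 genes of 132 were measured. The lists were chosen with earlier results of these data known, so their counts and medians are descriptions only. Under shMBD2, 2 of the 103 were higher and 3 lower, beside 2.86% of all genes (213 higher and 179 lower). RGS1, a regulator of G protein signalling that receptor activation induces, had 7.88, 8.03, 7.87 and 7.96 in shMBD2 cells, against 10.29 and 9.74 in shNTC cells. The groups were far apart, and RGS1 fell by 2.08 ± 0.25 (limma adjusted p = 0.00041). SPRY1, an inhibitor of the Ras pathway, had 4.42, 4.65, 4.34 and 4.24 in shMBD2 cells, against 6.04 and 5.10 in shNTC cells, and was lower by at least 2.05-fold (limma adjusted p = 0.0128). Its probe was detected on none of the 4 shMBD2 arrays and on both shNTC arrays of the set, so the bound sets the shNTC mean against the lowest detected signal or the probe's own, whichever was higher on each shMBD2 array. ITPR1, a calcium release channel opened by the product of PLCG2, fell by 0.83 (limma adjusted p = 0.0479).

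PIK3CG, the gamma catalytic subunit of PI3K, had 7.21, 7.65, 7.51 and 7.31 in shMBD2 cells, against 5.46 and 6.46 in shNTC cells. The groups did not overlap, and PIK3CG rose by 1.46 ± 0.27 (limma adjusted p = 0.00957), beside 0.04 for PIK3CD. IGLL1, a surrogate light chain gene that resembles the lambda constant genes, rose by 0.70 at its brightest probe (limma adjusted p = 0.0435); over the mean of its probes the value was 0.04 (limma adjusted p = 0.956). RGS1 passed in all 23 alternative settings, PIK3CG in 20, SPRY1 in 18 of 22, IGLL1 in 9 and ITPR1 in 8; without shNTC replicate 1 only RGS1 of the 5 passed, and without any single shMBD2 or shMS4A1 array 2 or 3 of them did. No gene passed among 8 coreceptors and modulators, 17 inhibitory receptors and phosphatases, 7 other proximal kinases or 16 adaptors. The smallest p-values there belonged to FCRL3 (-0.87, limma adjusted p = 0.0578) and CBL (-0.63, limma adjusted p = 0.0851).

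Under shMS4A1, 3 of the 103 genes passed, all lower and all among the 17 measured genes that receptor signalling induces, beside 0.197% of all genes (5 higher and 22 lower). LTA, a lymphotoxin gene, had 8.84, 8.56 and 8.48 in shMS4A1 cells, against 10.25 on the shNTC array. CD69, an early activation antigen, had 7.27, 6.87 and 7.28 in shMS4A1 cells, against 8.87 on the shNTC array. RGS1 had 7.48, 6.63 and 7.75 in shMS4A1 cells, against 9.51 on the shNTC array. Every shMS4A1 array lay below the control array for all 3 genes. LTA fell by 1.63 (limma adjusted p = 0.0041), CD69 fell by 1.73 (limma adjusted p = 0.0111) and RGS1 fell by 2.22 (limma adjusted p = 0.0111). The median of that list, chosen with earlier results known, was -0.61, beside a median near 0 over all genes. These falls rest on 1 control array, and in a fit of the 6 arrays of set 1 alone none of the 3 passed. On the set 2 control arrays CD69 stood at 7.01 and 7.04. With no block for the naming set its difference was -0.50 (limma adjusted p = 0.478). Under shCREM none of the 103 passed against the same array.

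Between shCREM and shMS4A1, which needs no control array, 14 of the 103 genes were higher and 6 lower, beside the 6.12% of all genes. Among genes induced by receptor signalling 6 of 17 were higher and none lower, in a list chosen with earlier results known. RGS1 had 10.33 and 10.33 in shCREM cells, against 7.48, 6.63 and 7.75 in shMS4A1 cells, and was 3.05 ± 0.26 higher (8.26-fold, limma adjusted p = 1.47e-05). CD69 had 9.55 and 9.83 in shCREM cells, against 7.27, 6.87 and 7.28 in shMS4A1 cells, and was 2.55 ± 0.20 higher (5.85-fold, limma adjusted p = 6.63e-06). The chemokine CCL3 was 2.26 higher, the ERK phosphatase DUSP5 1.34, LTA 1.13 and the activation antigen CD83 1.13.

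Of 17 inhibitory receptors and phosphatases, 4 were higher and none lower in shCREM than in shMS4A1 cells. Over all genes 2.87% passed as higher and 3.25% as lower. The 4 were FCRL3 by 1.51, FCRL2 by 1.2, CD22 by 1.07 and the ubiquitin ligase CBLB by 0.73. FCRL3 passed in 23 of 23 alternative settings, CD22 in 15, CBLB in 9 and FCRL2 in 8; FCRL2 was 0.51 higher without hairpin A of shCREM (limma adjusted p = 0.436) and 1.89 without hairpin B. CBLB was 0.49 higher without hairpin B of shCREM (limma adjusted p = 0.236). Of 8 coreceptors and modulators, CD72 was 1.46 higher, PTPRC, the phosphatase CD45, 1.16 and CD40 0.75, while CD38 (-0.66) and the tetraspanin CD81 (-0.40) were lower. CD22 had 6.71 and 7.05 in shCREM cells, against 5.92, 5.62 and 5.90 in shMS4A1 cells. CD72 had 8.49 and 7.29 in shCREM cells, against 6.19, 6.84 and 6.26 in shMS4A1 cells. In both genes the groups stood apart, though CD72 was 0.85 higher without hairpin A of shCREM (limma adjusted p = 0.168). PTPRC was detected on 1 of 3 shMS4A1 arrays, and with normalization within each set its value was 0.32 (limma adjusted p = 0.498).

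In the phospholipase C and calcium arm, ITPR1 was higher by 1.06 in shCREM than in shMS4A1 cells. PLCG1, the relative of PLCG2, had 6.96 and 7.05 in shCREM cells, against 7.85, 7.67 and 7.93 in shMS4A1 cells, a difference of -0.81 (limma adjusted p = 0.0247), beside -0.32 for PLCG2. The calcium channel ITPR3 had -0.77 and the transcription factor NFATC1 -0.85. RASGRP2, known chiefly as an exchange factor for RAP1, had -1.21. None of 7 other proximal kinases, 16 adaptors or 11 PI3K subunits and exchange factors passed; the kinase FYN was nearest to the threshold (0.59, limma adjusted p = 0.0694). Under every alternative setting CCL3, CD69, CD83, FCRL3, ITPR3, LTA, RASGRP2 and RGS1 passed. Of the 20 calls, 9 remained in a fit of set 1 alone, 9 without hairpin C of shMS4A1, 11 without hairpin A of shMS4A1 and 11 without hairpin A of shCREM.

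**Figure D5:**
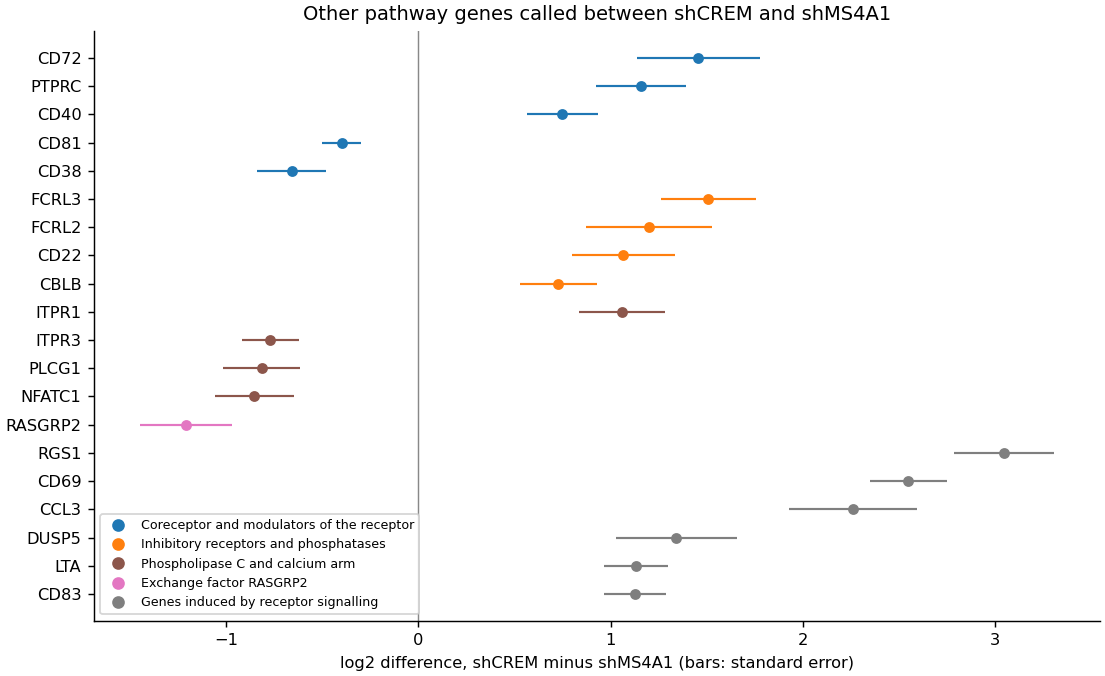
The 20 other pathway genes that passed between shCREM and shMS4A1, with the log2 difference, shCREM minus shMS4A1, as points and its standard error as bars, coloured by list. RGS1 at 3.05 and CD69 at 2.55 lie farthest to the right, and RASGRP2 at -1.21 farthest to the left.

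Over the 12 arrays, with each set centred on its own mean, the genes whose levels followed CD79A most closely among 13701 were SLC2A1, the glucose transporter GLUT1 (Pearson r = 0.952), PXDN, a peroxidase of the extracellular matrix (r = 0.945), and CELF1, an RNA-binding protein (r = 0.937). Under shMBD2 their log2 differences were -1.99, -1.22 and -1.62. Those closest to LYN were TRIM44 (r = 0.938), NFE2L1 (r = 0.927) and KIAA1549L (r = 0.913), with log2 differences between shCREM and shMS4A1 of 0.49, 0.96 and 1.37. These correlations are descriptions over arrays that share the same groups and normalization.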

How the data were processed

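RNA of 12 Raji samples was measured on Illumina BeadChip arrays. The authors deposited raw intensities, with no normalization, and a detection p-value for each probe and array, per the file headers. They also deposited processed intensities, linear and already normalized; software and build are not given in the sources used here. Raw and processed tables name probes differently and were joined by their values over the 12 arrays (48107 unique matches, largest distance 0.0566 to the match and smallest 0.0759 to any other). Symbols came from the platform annotation: 30113 probes had 1, 8 several and 17984 none.

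Raw intensities were background-corrected and quantile-normalized with neqc (offset 16) in limma 3.58.1, R 4.3.3, giving log2 values. Probes with detection p under 0.05 on at least 2 arrays were kept (27789), and a gene took its brightest probe (13702 genes). limma's model with the naming set as a block and an intensity trend was fitted to all 12 arrays (6 residual degrees of freedom), two-sided, with Benjamini-Hochberg adjustment over all genes, or over all kept probes for single probes. Errors after ± are its standard errors and intervals are its 95% intervals. The fit was tested on simulated data with independent noise, no set difference and no deviation shared by the genes of an array. That test cannot speak to how far calls depend on a single array. No 2 arrays shared more than 0.0457% of raw values.

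Members and lists were chosen with earlier results of these data known. All members were named; of each list, up to 3 genes by p-value, or all that passed where 6 or fewer did. Alternatives covered background, normalization, filter, probe choice, block, trend, weights, threshold and left-out arrays. The counts of 1 list are not reported here.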

Additional observations from a re-analysis of the deposited data

Results flagged for a closer look

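The effect of shMBD2 on CD79A differed from that of the other knockdowns by a direct test of the difference. It was -1.0856 log2 relative to the effect of shMS4A1 (limma adjusted p = 0.0491) and -1.0777 relative to the effect of shCREM (limma adjusted p = 0.0405). At the brightest probe all 4 shMBD2 arrays lay below their controls, while all shCREM and shMS4A1 arrays lay above theirs. At ILMN_2410371 hairpin A of shCREM read 6.3, below the shNTC array at 6.41. There hairpins B and C of shMS4A1, at 6.36 and 6.32, also lay below it. Neither contrast passed at the dimmer CD79A probes. Each contrast passed in 7 of 20 alternative settings, and the set 1 effects rest on 1 shNTC array. Left out, shNTC replicate 1 gave -0.91 and -0.91 (limma adjusted p = 0.157 and 0.133), and leaving out any single shMBD2 or shMS4A1 array ended both calls.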

How the results depend on the processing

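For shMBD2, 1 of the 10 receptor genes passed. Leaving out 1 array gave 0 to 2: none without shNTC replicate 1, and CD79A with BTK without either shCREM array. For shCREM minus shMS4A1, 1 passed (LYN), and 0 with no detection filter, with no block for the naming set, with only the arrays of set 1, with no intensity trend and with array weights; leaving out 1 array gave 0 to 1. For shMS4A1, 0 passed in each setting except the fit with no block for the naming set, which gave 1 (LYN). For shCREM, 0 passed in every setting. Same-numbered arrays of set 2 showed no shared deviation (correlations of -0.09, -0.01 and -0.03). These values cannot settle whether such arrays share more than a number. With the replicate block, 0, 0, 1 and 1 receptor genes passed for shMS4A1, shCREM, shMBD2 and shCREM minus shMS4A1, and 316 of all genes passed for shMBD2 in place of 392. Over all genes, the calls for shMBD2 were 33 without shNTC replicate 1, 38 with no block for the naming set and 708 without shCREM replicate 1. Calls for shCREM minus shMS4A1 were 350 with only the arrays of set 1, and those for shMS4A1 were 235 with no block. The cause of each change was not tested. The fits without arrays of groups outside a comparison were added after seeing the data. BLNK, near background, bounds what can be read of it.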
